A study of Homo sapiens with 4 samples.

Results

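The glutathione transferases examined here are 10 human genes, GSTP1, GSTA1, GSTA2, GSTA4, GSTM2, GSTM3, GSTM4, GSTK1, GSTO1 and MGST1, taken by name from a deposited table of 32479 genes. All 10 were found in it. RNA had been sequenced from 2 established human lines, HepG2 (from a hepatoblastoma) and PLC/PRF/5 (a hepatoma that carries integrated hepatitis B virus DNA), both labelled as wild type and as liver cancer cells. Each line was sampled once as an untreated control at 24 h and once after 24 h with 20 uM PF-429242. This compound inhibits site-1 protease, a Golgi enzyme needed for the release of the sterol regulatory element-binding proteins from membranes. Each group held 1 library, so no difference between a pair of libraries had a replicate check and none is given a p-value.

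Glutathione transferases join the tripeptide glutathione to reactive, often oily molecules, which can then be pumped out of the cell. The cytosolic enzymes are grouped in classes by sequence (alpha, mu, pi, omega and others), while the kappa enzyme sits in mitochondria and peroxisomes and MGST1 is a membrane protein of an unrelated fold. In adult liver the alpha class is abundant in hepatocytes, whereas the pi enzyme is typical of bile duct cells and of many tumours. Several of these genes are induced through antioxidant response elements, DNA sites bound by the transcription factor NRF2.

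Levels are in FPKM, which divides the fragments of a gene by its exon length in kilobases and by the size of its library. The libraries held between 16722204 and 21387301 fragments, and 3 fragments of GSTP1 were worth 0.0734 to 0.0939 FPKM. Mitochondrial genes took 16.6% of the fragments in control and 27.6% in treated HepG2, and 21.3% and 28.2% in PLC/PRF/5, so nuclear genes had a smaller share of each treated library. All 10 hepatocyte lineage markers reached 1 FPKM in every library, with summed levels of 10360 (HepG2 control), 9041 (HepG2 treated), 3151 (PLC/PRF/5 control) and 3656 FPKM (PLC/PRF/5 treated). Of the blood cell markers in the table, LYZ alone reached 1 FPKM. The fibroblast markers in the table summed to between 0.656 and 0.968 FPKM, and the endothelial markers to between 0.869 and 1.37 FPKM. These are bulk libraries, in which fewer cells with a transcript and less of it per cell cannot be told apart.

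The 3 promoters shown are those of the genes that separated the lines most (GSTP1 and GSTA1) and of GSTA2, the near copy of GSTA1. Each run is the 250 bases before the RefSeq start on the strand of the gene (GRCh38.p14). Capitals mark a match to the antioxidant response element letters TGACNNNGC in GSTP1, at chr11:67583562-67583811 on the plus strand. In GSTA1, at chr6:52803817-52804066, and GSTA2, at chr6:52763476-52763725, both on the minus strand, capitals mark the bases that differ between them.
GSTP1: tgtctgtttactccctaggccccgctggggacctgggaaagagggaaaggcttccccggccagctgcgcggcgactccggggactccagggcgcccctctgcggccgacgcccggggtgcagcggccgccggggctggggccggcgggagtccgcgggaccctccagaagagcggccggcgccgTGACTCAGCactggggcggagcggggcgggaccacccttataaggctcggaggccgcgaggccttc
GSTA1: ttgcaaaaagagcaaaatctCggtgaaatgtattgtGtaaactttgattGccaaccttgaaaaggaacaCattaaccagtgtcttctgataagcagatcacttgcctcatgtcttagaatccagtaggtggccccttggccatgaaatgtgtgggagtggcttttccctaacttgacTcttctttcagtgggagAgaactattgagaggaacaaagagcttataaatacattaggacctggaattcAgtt
GSTA2: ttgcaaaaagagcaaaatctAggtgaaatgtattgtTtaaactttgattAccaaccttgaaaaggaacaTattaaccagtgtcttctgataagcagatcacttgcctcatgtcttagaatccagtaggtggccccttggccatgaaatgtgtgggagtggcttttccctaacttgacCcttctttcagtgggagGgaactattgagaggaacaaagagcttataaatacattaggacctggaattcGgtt
The alpha promoters differed at 7 of 250 bases (97.2% identical). GSTP1 held 28 CpG pairs in this window against 1 each in GSTA1 and GSTA2, where the median of 35116 promoters was 11. The element match in GSTP1 began at position -66 from the start, and TGACNNNGC was found on either strand in 10.9% of all promoters. Of the other members, GSTA4 and GSTO1 also held a match. The letters TATAAA, the core of a TATA box, began at position -30 in both GSTA1 and GSTA2 and were found in 10.7% of promoters on either strand. The sterol regulatory element letters TCACNCCAC, found in 0.883% of promoters, were in none of the windows of the 10 genes.

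The pi-class gene GSTP1 (ENSG00000084207, chromosome 11, 67583595 to 67586656) encodes the main glutathione transferase of many tumours and set the lines apart more than any other member. It was at 0.0939 FPKM in the HepG2 control and listed at 0 in treated HepG2, which correspond to 3 and 0 fragments. In PLC/PRF/5 it was at 313 FPKM before and 251 FPKM after inhibition, from 12807 and 8162 fragments. GSTP1 was thus at or under the detection limit in both HepG2 libraries and ranked 45 and 49 among 16709 protein-coding genes in those of PLC/PRF/5. Among the controls it was 3338-fold higher in PLC/PRF/5 (95% counting interval 1142 to 16190). Among the treated libraries it was at least 3260-fold higher, a limit computed from 3 fragments in HepG2. Of 11000 protein-coding genes compared between the controls, 1 had a lower log2 ratio of HepG2 over PLC/PRF/5. The 5 cholangiocyte markers, genes of the bile duct cells in which GSTP1 is normally found, were divided between the lines. CFTR was listed at 0 in both HepG2 libraries and was at 4.90 and 2.80 FPKM in PLC/PRF/5, and KRT7, under 1 FPKM in every library, was also higher there. KRT19, EPCAM and SOX9 were higher in the HepG2 control than in the PLC/PRF/5 control, and they carried the summed level of 154 and 119.5 FPKM in HepG2 and 46.4 and 54.6 FPKM in PLC/PRF/5. Their part in the GSTP1 result was not tested.

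GSTA1 (ENSG00000243955, chromosome 6, 52791664 to 52803910), the principal alpha-class enzyme of hepatocytes, had the opposite pattern. Its HepG2 levels were 22.4 FPKM (control) and 16.5 FPKM (treated), and those in PLC/PRF/5 were 1.41 and 2.05 FPKM. Both HepG2 libraries lay above both PLC/PRF/5 libraries, at 15.9-fold among the controls (11.4 to 22.7) and 8.04-fold among the treated (5.89 to 11.2). From the top, its log2 ratio ranked 11 of 11000 protein-coding genes. GSTA2 (ENSG00000244067, chromosome 6, 52750089 to 52763569), a further hepatocyte alpha enzyme, was at 3.33 and 2.50 FPKM in HepG2 and at 0.306 and 0.579 FPKM in PLC/PRF/5. It was 10.9-fold higher in HepG2 among the controls (5.22 to 26.2), and its PLC/PRF/5 values rest on 8 and 12 fragments.

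The values of GSTA1 and GSTA2 may not be separate measurements. Their coding sequences in GENCODE 29 were 96.7% identical, and 26.2% of the 50-base words of GSTA1 transcripts also occurred in transcripts of other genes, mainly GSTA2. With 100-base words the share was 9.85%. Neither the read length nor the handling of reads that match several genes is stated in the sources at hand. Of the 10 hepatocyte markers, all but FGB were higher in HepG2 as well, and the part of such a difference in the GSTA result was not tested.

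GSTA4 (ENSG00000170899, chromosome 6, 52977948 to 52995378) acts on 4-hydroxynonenal, a product of lipid peroxidation, and did not follow its alpha-class neighbours. It was at 10.3 and 7.91 FPKM in control and treated HepG2 and at 19.7 and 14.3 FPKM in PLC/PRF/5. PLC/PRF/5 was 1.92-fold higher among the controls (1.69 to 2.17) and 1.80-fold higher among the treated (1.57 to 2.08). The coding sequence of GSTA4 was 62.8% identical to that of GSTA1, and it shared no 50-base word with another gene.

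**Figure D1:**
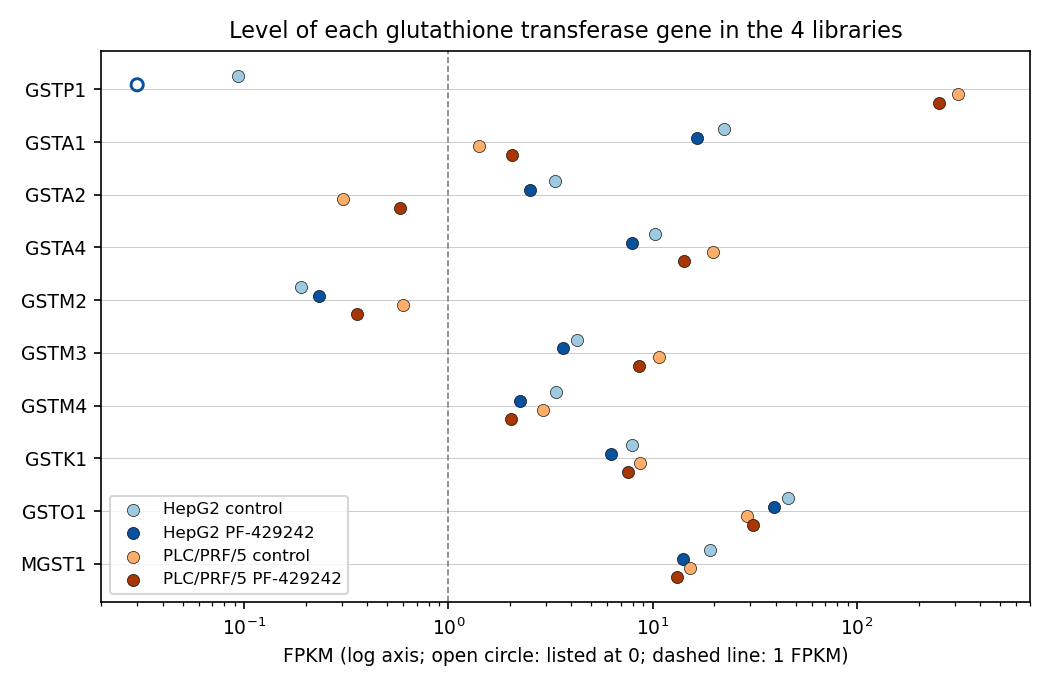
FPKM of each of the 10 genes on a log axis, 1 point for each of the 4 libraries; an open circle marks a gene listed at 0. GSTP1 stands at 251 and 313 FPKM in PLC/PRF/5 and at or under 0.0939 FPKM in HepG2, and GSTA1 and GSTA2 are higher in HepG2.

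Added together, the 3 mu-class genes were lower than the 3 alpha-class genes in every library. GSTM3 (ENSG00000134202, chromosome 1, 109733932 to 109741038), known from brain and testis, was at 4.24 and 3.63 FPKM in HepG2 and at 10.8 and 8.58 FPKM in PLC/PRF/5. It was 2.54-fold higher in the PLC/PRF/5 control (2.24 to 2.88) and 2.36-fold higher in the treated library (2.08 to 2.69). GSTM4 (ENSG00000168765, chromosome 1, 109656081 to 109674836) was at 3.37 and 2.24 FPKM in HepG2 and at 2.90 and 2.02 FPKM in PLC/PRF/5. Its control levels did not differ detectably between the lines (HepG2 over PLC/PRF/5 1.16, 0.998 to 1.36).

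GSTM2 (ENSG00000213366, chromosome 1, 109668022 to 109709551), an enzyme of muscle and brain, stayed under 1 FPKM in all 4 libraries, at 0.190 and 0.232 in HepG2 and 0.600 and 0.355 in PLC/PRF/5. The FPKM divides by 9116 bases of annotated exon, while the principal coding transcript has 1157, and 29 to 117 fragments were counted. In the controls it was 3.15-fold higher in PLC/PRF/5 (2.09 to 4.92). GSTM2 overlaps GSTM4 and GSTM1 in the annotation on the same strand. Of the 50-base words of GSTM2 16.0% occur in other genes, and of those of GSTM4 15.5%. Reads of both genes may therefore be shared. The coding sequences of GSTM2 and GSTM4 were 89.1% identical.

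The remaining members were present in both lines at more similar levels. GSTO1 (ENSG00000148834, chromosome 10, 104235356 to 104267459), the omega enzyme, which reduces thiol conjugates and methylated arsenic, was at 45.7 and 39.2 FPKM in HepG2 and 28.8 and 30.9 FPKM in PLC/PRF/5. It was 1.59-fold higher in the HepG2 control (1.46 to 1.73). GSTK1 (ENSG00000197448, chromosome 7, 143244093 to 143270854), the kappa enzyme, was at 7.89 and 6.26 FPKM in HepG2 and 8.69 and 7.56 FPKM in PLC/PRF/5, and the interval of its control ratio (0.908, 0.813 to 1.01) included 1. MGST1 (ENSG00000008394, chromosome 12, 16347142 to 16609259), the microsomal enzyme, was at 19.1 and 14.1 FPKM in HepG2 and 15.2 and 13.2 FPKM in PLC/PRF/5. It was 1.26-fold higher in the HepG2 control (1.19 to 1.33).

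Counted over the 9 members with at least 1 FPKM in either control, 2 were higher in HepG2 by 2-fold or more on the log2(FPKM + 1) scale (GSTA1 at 3.28 and GSTA2 at 1.73). A further 2 were lower (GSTP1 at -8.17 and GSTM3 at -1.17). Over all 13861 genes compared, 10.0% were higher and 13.1% lower by this rule. The median log2 ratio was 0.17 for the members and -0.06 for all genes. The pseudocount of 1 understates the ratio of low genes such as GSTA2.

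Added together, the 10 genes stood at 117 and 92.6 FPKM in HepG2 (control, then treated) and at 402 and 331 FPKM in PLC/PRF/5. Without GSTP1 the sums were 117, 92.6, 88.4 and 79.5 FPKM, so without this gene the sum was lower in PLC/PRF/5 than in HepG2. GSTP1 made up 78.0% and 76.0% of the summed level in PLC/PRF/5 and 0.0805% in the HepG2 control. The 3 alpha genes made up 30.9% and 29.1% in HepG2 and 5.34% and 5.10% in PLC/PRF/5. GSTO1 was the highest member in both HepG2 libraries (39.2% and 42.4%), ahead of GSTA1 and MGST1.

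That order depends on the gene length used. FPKM here divided by the union of all annotated exons, or the length recovered from the values, 7441 bases for MGST1 against 979 for its principal coding transcript and 1911 against 961 for GSTP1. Per kilobase of the principal transcript, a scale added after the values were seen, MGST1 was the highest member in HepG2, at 145 in the control (FPKM with that length), ahead of GSTO1 at 79.6 and GSTK1 at 31.8. In PLC/PRF/5 GSTP1 remained first on this scale, at 623 and 500 in control and treated cells, followed by MGST1 at 116 and 100.4. The choice of length changes no ratio of a gene between libraries.

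**Figure D2:**
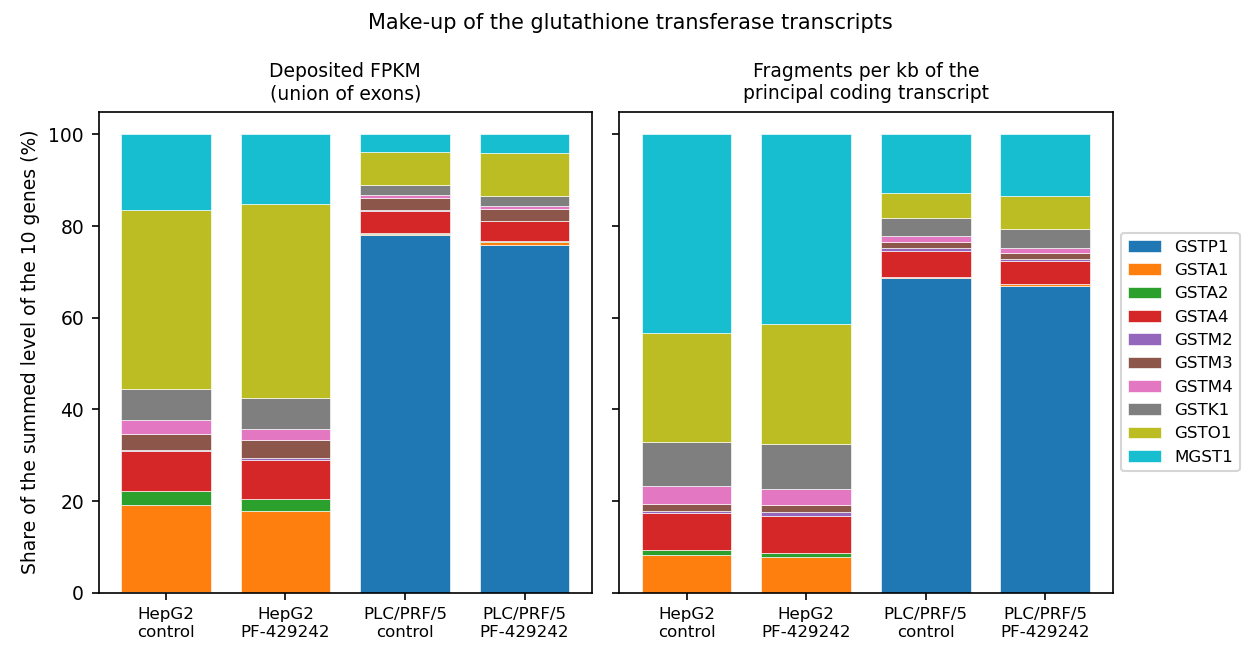
Share of each gene in the summed level of the 10 genes (%) in the 4 libraries, with deposited FPKM on the left and fragments per kilobase of the principal coding transcript on the right. GSTP1 takes 78.0% and 76.0% of the deposited sum in PLC/PRF/5, and in HepG2 the leading gene is GSTO1 on the left and MGST1 on the right.

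The next question was whether site-1 protease inhibition was accompanied by a change in these genes. No member differed by 2-fold or more between treated and control HepG2, where 1.0% of 12347 genes were higher and 2.14% lower. Of the 8 members with at least 1 FPKM in HepG2, all were below 0 on the log2 scale, from -0.18 for GSTM3 to -0.43 for GSTM4. Their median was -0.33 against -0.17 for all genes, so most genes lay below 0 as well. The share of all genes below 0 was not computed. Every one of the 8 lay under the median of all genes on the deposited scale, on the TPM scale (equal sums of FPKM), under median-of-ratios scaling and with totals over nuclear genes. These scalings moved the median of all genes to -0.48, 0.005 and -0.005. The median of the members minus that of all genes was -0.15 on the deposited scale and -0.19, -0.16 and -0.16 on the others. Each scaling multiplies all genes of a library by the same factor, which shifts all log2 ratios almost equally. The place of the members against the median could therefore hardly change, and the scalings are not separate checks of it.

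In HepG2 the drug-metabolising genes GSTA1 and MGST1 had treated over control ratios of 0.738 (0.646 to 0.843) and 0.736 (0.694 to 0.781). The ratio of GSTA2 was 0.749, with an interval (0.522 to 1.07) that included 1. GSTM4 had the lowest ratio, 0.664 (0.562 to 0.784). The ratios were 0.767 for GSTA4 (0.660 to 0.892), 0.794 for GSTK1 (0.704 to 0.895), 0.858 for GSTO1 (0.794 to 0.927) and 0.856 for GSTM3 (0.735 to 0.997). On the deposited scale all 7 of these intervals other than that of GSTA2 lay below 1, but they cover counting error only and not the spread between cultures. With median-of-ratios scaling and with totals over nuclear genes, the log2 ratios of GSTO1 were -0.0063 and -0.0173 and those of GSTM3 -0.008 and -0.0176, close to 0. Those of GSTM4, the lowest, were -0.28 and -0.30. The other members also moved toward 0, to -0.10 and -0.12 for GSTK1 and -0.15 and -0.16 for GSTA4. GSTA2 was at -0.15 and -0.17, GSTA1 at -0.21 and -0.23 and MGST1 at -0.21 and -0.23. The intervals were not recomputed on these scales. GSTM2 was at a ratio of 1.22 (0.743 to 2.02), and for GSTP1 no ratio is given.

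In PLC/PRF/5 no member differed by 2-fold or more either, where 1.48% of 13144 genes were higher and 1.82% lower. Of the 8 members with at least 1 FPKM, 6 were below 0 and 2 above, with a median log2 ratio of -0.25 against -0.13 for all genes. The 6 were also under the median of all genes. Here too most genes lay below 0, and their share was not computed. The ratio of GSTP1, which rests on the most fragments, was 0.803 (0.780 to 0.825). GSTA4 was at 0.723 (0.647 to 0.807), GSTM4 at 0.695 (0.581 to 0.830), GSTM3 at 0.797 (0.723 to 0.877), GSTK1 at 0.870 (0.778 to 0.972) and MGST1 at 0.866 (0.814 to 0.922). On the same 2 other scalings the log2 ratios were -0.07 and -0.06 for GSTK1, -0.08 and -0.07 for MGST1 and -0.19 and -0.18 for GSTP1. Below the level filter, GSTM2 was at 0.592 (0.422 to 0.822).

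The members above 0 in PLC/PRF/5 were GSTA1 and GSTO1. The GSTA1 ratio was 1.46 (0.923 to 2.31), from 38 and 44 fragments, and that of GSTA2, under 1 FPKM, was 1.89 (0.710 to 5.33). GSTO1 was at 1.07 (0.981 to 1.18), with a log2 ratio of 0.10 that became -0.23 on the TPM scale, 0.22 with median-of-ratios scaling and 0.23 with nuclear totals. All 3 intervals included 1. Hepatocyte markers varied with treatment too. In HepG2 9 of the 10 were lower in the treated library, all but APOA2, and in PLC/PRF/5 7 were higher and 3 lower. The median log2 ratio of all genes was itself below 0, at -0.17 in HepG2 and -0.13 in PLC/PRF/5. Of the lower markers, ALB and HNF4A in HepG2 and SERPINA1 and HNF4A in PLC/PRF/5 lay above that median. In PLC/PRF/5 ALB went from 624 to 1148 FPKM and FGB from 648 to 347 FPKM. Their part in the result was not tested.

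**Figure D3:**
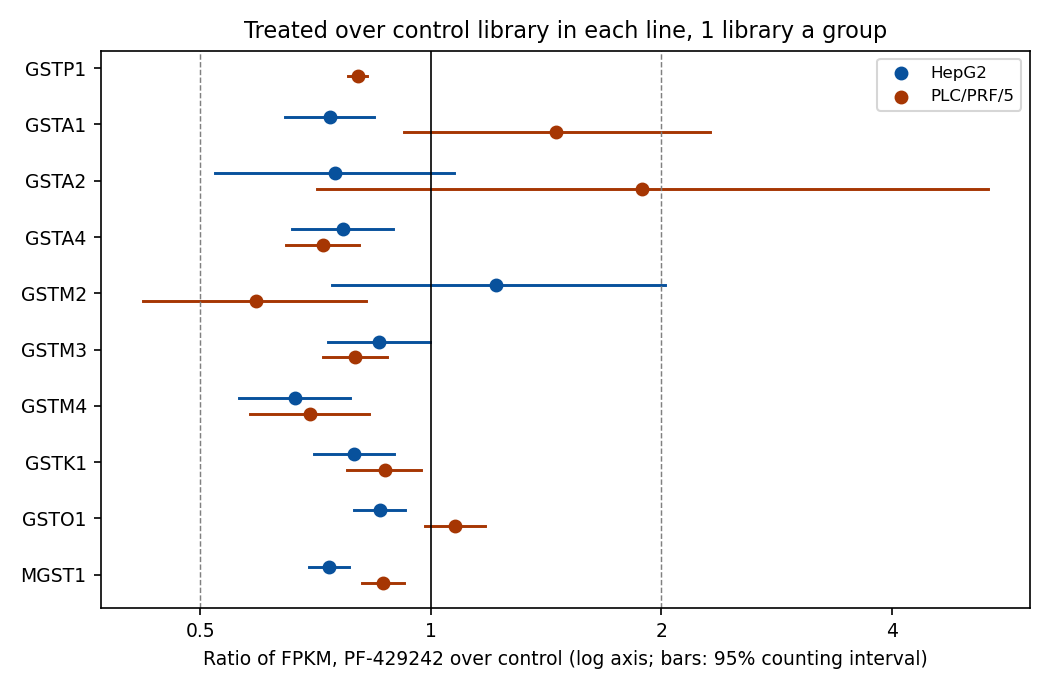
Ratio of FPKM, PF-429242 over control, for each gene in HepG2 (blue) and PLC/PRF/5 (brown) on a log axis, with 95% counting intervals and dashed lines at 2-fold; GSTP1 in HepG2 (3 and 0 fragments) is not drawn. Apart from GSTM2, HepG2 ratios lie between 0.664 and 0.858, while GSTA1 and GSTA2 in PLC/PRF/5 have ratios above 1 with intervals that include 1.

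The log2 ratio was subtracted between the lines, PLC/PRF/5 minus HepG2, to see where the responses differed. None of the 7 members with at least 1 FPKM in a library of each line differed by 1 log2 unit or more, compared with 1.82% of 11062 genes higher and 1.13% lower. GSTA1 had the largest difference of these, 0.76, and its ratio in PLC/PRF/5 was 1.98 times that in HepG2 (1.26 to 3.11). GSTO1 followed at 0.32 (1.25 times, 1.11 to 1.41) and MGST1 at 0.22 (1.18 times, 1.08 to 1.28). For GSTA4, GSTM3, GSTM4 and GSTK1 the quotient lay between 0.931 and 1.10, with intervals that included 1. Below the level filter the quotient was 2.52 for GSTA2 (0.967 to 6.58) and 0.486 for GSTM2 (0.275 to 0.859). These intervals come from fragment counts by a normal approximation, and whether the lines differ beyond the spread between cultures was not tested.

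A shared effect over both lines was fitted with limma, with cell line as a block. The only residual of a gene was its difference in response between the lines. limma adjusts this spread toward that of all genes fitted, so an SE does not rest on the gene alone. After Benjamini-Hochberg adjustment no gene of 12838 passed 0.05 (0.0%), and so none of the 9 members fitted. Without adjustment, 2488 genes (19.4%) and 3 of the 9 members had a p under 0.05. These were GSTA4 at a log2 change of -0.39 ± 0.08 (SE), GSTM4 at -0.40 ± 0.11 and MGST1 at -0.30 ± 0.09, each lower in 2 of 2 lines. Their limma adjusted p-values were 0.193, 0.205 and 0.219. GSTM3, GSTK1 and GSTP1 had values of -0.24, -0.24 and -0.22, and GSTA1, GSTA2 and GSTO1 of -0.04, -0.02 and -0.06. The median log2 change was -0.24 over the members fitted and -0.14 over all genes fitted. limma-voom on the recovered fragments also called 0 genes, with 5 members at an unadjusted p under 0.05. The share of all genes under 0.05 in the voom fit was not computed. With median-of-ratios scaling 1 of the 9 members, GSTM4, had an unadjusted limma p under 0.05, and 0 genes passed adjustment. The share of all genes under 0.05 was not computed for that fit either. On the TPM scale 6 members, all lower, and 4987 of 16340 genes passed adjustment. On that scale the median of all genes was -0.48 in HepG2 and -0.43 in PLC/PRF/5.

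Other genes of the glutathione transferase superfamily were listed too, 16 of which were in the table. Of these, 7 reached 1 FPKM in a library, and none differed by 2-fold with treatment. MGST2, which makes leukotriene C4 and reduces lipid peroxides, was at 21.1 and 19.1 FPKM in HepG2 and 12.2 and 13.3 FPKM in PLC/PRF/5. GSTO2, the neighbour of GSTO1, was at 2.90 and 2.60 FPKM in HepG2 and 0.773 and 1.41 FPKM in PLC/PRF/5. MGST3 was at 1.79 and 1.27 FPKM in HepG2 and 4.85 and 3.12 FPKM in PLC/PRF/5, and its treated over control log2 ratios were -0.30 and -0.51.

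The prostaglandin E synthase gene PTGES had 0 and 2 fragments in HepG2 and was at 2.87 and 2.40 FPKM in PLC/PRF/5. PTGES2 was at 10.2 to 11.5 FPKM, GSTCD at 4.03 to 5.42 FPKM and GSTZ1, the zeta enzyme of tyrosine breakdown, at 0.732 to 1.08 FPKM in the 4 libraries. GSTM1 had 5 and 2 fragments in HepG2 and 0 in both PLC/PRF/5 libraries, and GSTA3, GSTM5, GSTT2, GSTT2B, GSTT4, HPGDS, LTC4S and ALOX5AP stayed under 1 FPKM. In the controls, GSTO2 was higher in HepG2 by 2-fold or more, and MGST3 and PTGES were lower.

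The 12 genes of glutathione synthesis and reduction moved in both directions with treatment, 5 above 0 and 7 below in HepG2 and 6 and 6 in PLC/PRF/5. Their medians were -0.14 and -0.04. The cystine transporter gene SLC7A11 alone passed 2-fold, in HepG2, where it went from 7.25 to 17.2 FPKM, and it was at 9.98 and 15.6 FPKM in PLC/PRF/5. CTH, which makes cysteine from cystathionine, had log2 ratios of 0.40 and 0.41. The pentose phosphate genes PGD, a source of the NADPH that reduces glutathione, and TKT had log2 ratios of -0.56 and -0.53 in HepG2 and -0.57 and -0.40 in PLC/PRF/5. Between the controls none of the 12 was higher in HepG2 by 2-fold, and 2 were lower. These were the regulatory subunit gene of glutamate-cysteine ligase, GCLM, at 10.7 against 51.3 FPKM, and CBS, which condenses homocysteine with serine, at 1.99 against 5.60.

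Of the genes of glutathione breakdown and conjugate export, 13 were measured in HepG2 and 14 in PLC/PRF/5, and none of those measured passed 2-fold with treatment. Their medians were -0.19 and -0.06. CHAC1, which cleaves glutathione and is induced by ATF4, was listed at 0 and at 0.743 FPKM in HepG2 and was at 13.2 and 15.7 FPKM in PLC/PRF/5. Its HepG2 values, below the level filter, rest on 0 and 31 fragments. The lower counting limit of its treated over control ratio there was 6.50. The efflux pump gene ABCC4 was at 2.61 and 1.87 FPKM in HepG2 and 13.3 and 9.12 FPKM in PLC/PRF/5. GGT7 had log2 ratios of -0.57 and -0.12, and GGCT, which acts on gamma-glutamyl peptides, of -0.16 and -0.42. Between the controls, DPEP1 and ABCC3 were higher in HepG2 by 2-fold, and CHAC1, ABCC4 and NAT8, the last enzyme of mercapturate synthesis, were lower.

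Other enzymes that use glutathione had medians of -0.22 in HepG2 and -0.07 in PLC/PRF/5, each over 14 measured genes, and none passed 2-fold with treatment. GLO1, the glyoxalase that detoxifies methylglyoxal, was at 78.4 and 50.7 FPKM in HepG2 and 99.1 and 71.9 FPKM in PLC/PRF/5. Glutaredoxin (GLRX) was at 7.79 and 10.8 FPKM in HepG2 and 3.72 and 4.83 FPKM in PLC/PRF/5. GPX8 was nearly absent from HepG2 (0.074 and 0.012 FPKM) and was at 5.33 and 2.78 FPKM in PLC/PRF/5. The formaldehyde dehydrogenase gene ADH5 had log2 ratios of -0.41 and -0.17. Between the controls, the peroxidase genes GPX2 (228 against 59.0 FPKM) and GPX7 were higher in HepG2 by 2-fold and GPX8 was lower.

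The gene of NRF2 itself, NFE2L2, was at 39.9 and 43.0 FPKM in HepG2 and 66.1 and 58.4 FPKM in PLC/PRF/5. NRF2 regulators and targets outside the lists above had a median log2 ratio of -0.13 over 16 measured genes in HepG2 and 0.015 over 18 in PLC/PRF/5, with none past 2-fold. MAFG, a small partner of NRF2, had log2 ratios of 0.18 and 0.33, and the gene of its inhibitor KEAP1 of -0.24 and -0.08. The malic enzyme gene ME1 was listed at 0 in both HepG2 libraries and was at 27.2 and 19.1 FPKM in PLC/PRF/5, and the haem transporter gene SLC48A1 was at 1.23 and 1.11 and at 8.83 and 7.06 FPKM. HMOX1, haem oxygenase, was the only gene of this list whose log2 ratios differed by 1 unit between the lines, at -0.48 and 0.53. Between the controls, NQO1 was higher in HepG2 by 2-fold (175 against 67.1 FPKM), and ME1, SLC48A1, MAFK, HMOX1 and TXNRD1 were lower.

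Transcription factors known to act on GSTA and drug metabolism genes had medians of -0.11 over 11 measured genes in HepG2 and -0.10 over 10 in PLC/PRF/5, with none past 2-fold. CEBPB was at 18.9 and 27.9 FPKM in HepG2 and 25.3 and 35.9 FPKM in PLC/PRF/5. CEBPA had log2 ratios of -0.10 and 0.49 and AHR of -0.14 and -0.29. Between the controls, the genes of the nuclear receptors PXR (NR1I2) and RXRA were higher in HepG2 by 2-fold, and AHR was lower. In limma none of the genes on these lists passed adjustment.

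**Figure D4:**
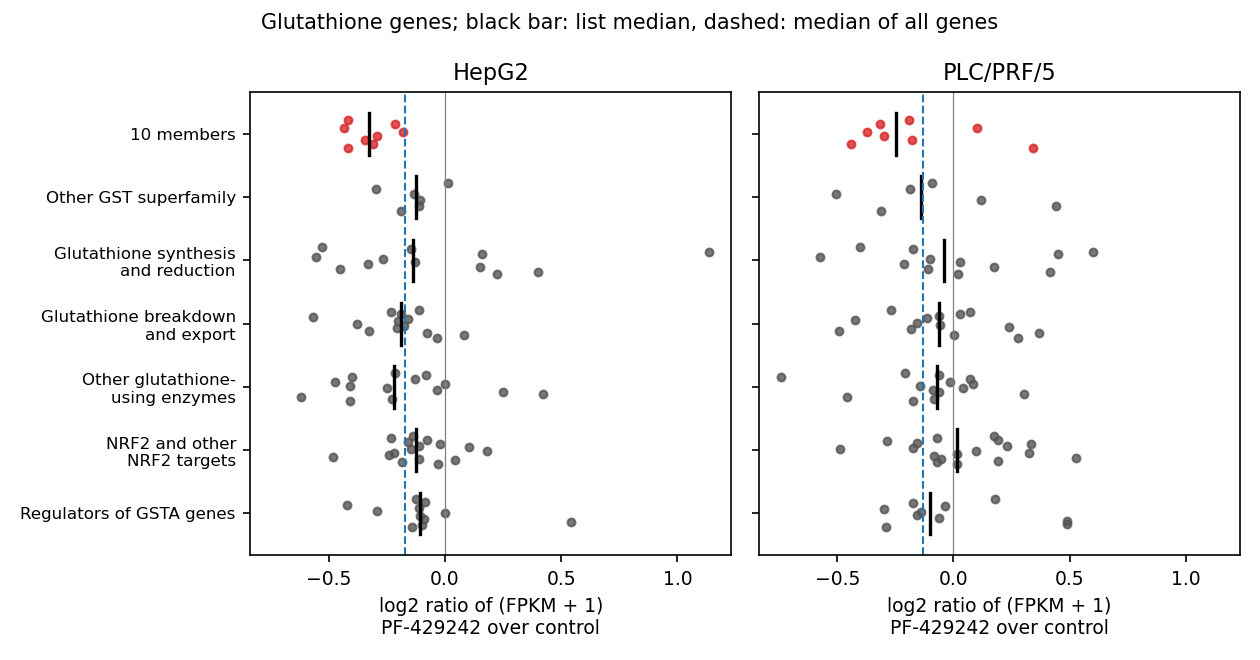
log2 ratio of (FPKM + 1), PF-429242 over control, for each measured gene of the 10 members (red) and of 6 related lists (grey) in each line, with list medians as black bars and the median of all genes dashed. The medians of the members are -0.33 in HepG2 and -0.25 in PLC/PRF/5, and SLC7A11 at 1.14 in HepG2 is the one point beyond 2-fold.

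The genes with profiles most like those of 3 members were found by the Euclidean distance of centred log2(FPKM + 1) over the 4 libraries, among 10663 protein-coding genes. Nearest to GSTP1 were CRH, the corticotropin-releasing hormone gene, at a distance of 0.33, the thymosin gene TMSB4X at 0.69 and the connexin gene GJA1 at 1.24. CRH and GJA1 were listed at 0 in both HepG2 libraries, and CRH was at 236 and 198 FPKM in PLC/PRF/5. Nearest to GSTA1 were SCARA3 at 0.13, the metallothionein gene MT1A at 0.22 and AFP, the fetal plasma protein alpha-fetoprotein, at 0.22. AFP was at 2976 and 2483 FPKM in HepG2 and 288 and 441 FPKM in PLC/PRF/5, higher in both HepG2 libraries and, within each line, in the same order as GSTA1. Nearest to MGST1, whose level varied little, were PDLIM5 at 0.03 and LRRC45 and MEAF6 at 0.04 each. With 4 libraries such distances are a description of these values.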

How the data were processed

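The authors deposited FPKM values for 32479 Ensembl genes in 4 libraries, 1 in each group. The submitters' processing notes name TopHat2 and the GRCh38 build. The sources at hand do not state the counting program, annotation release or strand setting. Symbols and positions are those of GENCODE 29 on GRCh38, which held 32354 of the identifiers.

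Fragments were recovered as FPKM times length times library total. With the union of exons in GENCODE 29, 75.3% of genes gave whole fragments within 0.001 in all 4 libraries. For most others, including GSTA1, GSTA2, GSTA4, GSTM4, GSTK1 and MGST1, the nearest length that gave whole fragments in all libraries was used (1262 bases for GSTA1, where 0.5 times that length also gives whole fragments, and 0.5 times the fragments). Ratios of FPKM carry 95% exact conditional binomial (Clopper-Pearson) intervals, which cover counting error only, as several fragments can come from 1 molecule. A gene at 0 was bounded with 3 fragments.

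Log2 ratios are of FPKM + 1, counted where either library reached 1 FPKM, and for the difference between lines where a library of each did. The model of the shared effect used limma 3.58.1 and R 4.3.3 (trend, cell line as a block, at least 1 FPKM in at least 2 libraries, 1 residual degree of freedom). It was checked on simulated data. In a first simulation over all genes fitted, it called unchanged genes well beyond the nominal rate of false calls. The check was then limited, with that result known, to genes with a mean of at least 100 fragments. There it recovered nearly all genes that had been set to differ 4-fold, with few false calls. Adjusted p-values of genes with fewer fragments, and the calls on the TPM scale, are therefore not shown to be calibrated. Recovery of differences smaller than 4-fold, such as those of the members with treatment, was not tested. Which separate cultures the libraries came from is not given beyond line and treatment. Promoters are from RefSeq (GRCh38.p14). All 10 members matched, MGST1 with 3 starts.

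Genes named were all members, glutathione transferase superfamily genes at 1 FPKM in any library, up to 4 genes of each other list with the largest mean log2 ratio, and the 3 nearest profiles of GSTP1, GSTA1 and MGST1. Genes past 2-fold between the controls, and GPX7, HMOX1 and NFE2L2, were named after their values were seen. Members and lists were chosen with earlier results of these data known. GSTT1 and GSTA5 were not analysed here, and 1 gene that the rule names is not reported here. Alternatives were pseudocounts, filters, thresholds, scalings and limma settings.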

Additional observations from a re-analysis of the deposited data

Results flagged for a closer look

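In 2 members measured in both lines the treated library lay on opposite sides of its control. GSTA1 had log2 ratios of -0.42 in HepG2 and 0.34 in PLC/PRF/5, a difference of 0.76. GSTO1 had ratios of -0.22 and 0.10, a difference of 0.32. With 1 library a group the difference was not tested. The PLC/PRF/5 interval of each gene included a ratio of 1, and GSTO1 was at -0.23 in PLC/PRF/5 on the TPM scale. With median-of-ratios scaling and nuclear totals GSTO1 was at -0.0063 and -0.0173 in HepG2 and at 0.22 and 0.23 in PLC/PRF/5, so its position below the control in HepG2 rests on the scale.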

How the results depend on the processing

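The count of members past the fold threshold with treatment was 0 in each line under all 9 alternatives, which included thresholds of 1.5-fold and 4-fold. That count used log2(FPKM + 1), which understates the ratio of low genes. As a plain ratio of FPKM, GSTM4 in HepG2 was past 1.5-fold, at 0.664. So were GSTM2 (0.592) and GSTA2 (1.89) in PLC/PRF/5, both under the level filter. Past 1 log2 unit between the lines, the count of members was 0 under all 7 alternatives. With treatment, the 4-fold threshold, the filter of at least 5 FPKM and the pseudocount of 5 could not raise a count of 0. Between the lines the same holds for the filter. Between the controls, 1 member was higher and 1 lower with a pseudocount of 5 and at 4-fold, and 1 was higher with at least 5 FPKM. The number of members that passed in limma was 6 on the TPM scale and 0 under the other 10 alternatives. In that fit the signs of GSTA1 and GSTA2 turned with a pseudocount of 0.1 (0.039 and 0.17), and those of GSTA1, GSTA2 and GSTO1 under median-of-ratios scaling (0.10, 0.0771 and 0.11). The cause was not tested. The adjusted p of GSTA4, GSTM4 and MGST1 ranged from 0.034, 0.0362 and 0.034 on the TPM scale to 1.0 without the cell line term. With no replicate block (no cell line term), 0 members and 0 genes passed. The labels give no replicate numbers, and the line was the only pairing. With 0.5 times the fragments, an alternative added after seeing the data, the GSTA1 intervals were 0.610 to 0.892 in HepG2, 0.753 to 2.85 in PLC/PRF/5 and 9.95 to 26.9 between the controls. No library could be left out, since each group held 1. Depth limits GSTA2 in PLC/PRF/5 (8 and 12 fragments) and GSTP1 in HepG2 (3 and 0).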
